A study of Mus musculus with 75 samples.

Results

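The comparison asked whether the share of each mRNA that was bound to tagged ribosomes changed when mouse CD4 effector T cells were stimulated. It used 20 of the 75 libraries of the series: the ribosome-bound RNA (IP) and the RNA before precipitation (Input) of stimulated and of IL7-rested cultures from 5 mice. Members were taken by their labels for assay, stimulation and fraction. The quantity described per mouse is the log2 ratio of IP over Input in the stimulated culture minus that in the rested culture. The main test paired IP and Input within a culture but did not pair the stimulated and rested cultures of a mouse. The stimulated cultures held CD4+CD25- effector cells (labelled CD4 Teff, from spleen and lymph nodes) with beads that carry anti-CD3 and anti-CD28. The labelled number of effector cells per bead was the same in all of them. The rested cultures held the same cells with IL7 and are labelled IL7 rest. All 5 mice came from the tag line B6N.129-Rpl22tm1.1Psam/J crossed with the Cre line B6.Cg-Tg(Cd4-cre)1Cwi/BfluJ, so the controls carried the tag and the Cre as well. A further 10 libraries of the same 5 mice came from stimulated cultures with added regulatory T cells (Tregs). They entered the fit through its filter on low counts, its scaling and its estimate of the spread. The sources used here give neither the age of the mice nor the length of the cultures.

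RiboTag mice carry an Rpl22 gene, for a protein of the large ribosomal subunit, in which Cre recombinase swaps the last exon for a copy with a hemagglutinin tag. With Cre under a Cd4 promoter, ribosomes become tagged in cells that express Cd4 or did so as thymocytes, and an antibody to the tag pulls down those ribosomes with the mRNA on them. A higher ratio of IP over Input means that a larger share of that mRNA, relative to other mRNAs of the same library, was recovered in the IP. No library used here is from an IP without the tag. RNA in the IP that was not on tagged ribosomes was therefore not measured. The ratio does not count how many ribosomes sit on an mRNA. T cell activation is known to raise protein synthesis and ribosome production, largely through mTORC1 and Myc, and a change in total synthesis cannot appear in a ratio scaled within each library.

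The 20 libraries held 1658481 to 2689657 gene counts. Between 13770 and 14191 genes had at least 1 count in stimulated IP and 14001 to 14792 in stimulated Input, against 12401 to 13314 in rested IP and 13114 to 13859 in rested Input. After a filter on low counts 10751 genes were tested, of which 7206 are called well measured here (a mean of at least 5 log2 CPM, that is counts scaled to a common library size, over the 30 RiboTag libraries). The tables give Ensembl identifiers, and no table at hand pairs these with gene symbols. Genes are therefore given by identifier, with no name or role. The identifiers printed are those of the 2 largest rises and the 2 largest falls among the genes that passed the test for a change. For the same reason the labelled cell type could not be checked against marker genes. In bulk RNA, fewer cells of a type and less RNA per cell cannot be told apart.

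On stimulation the ratio of IP over Input rose for 12 genes and fell for 7 of the 10751 tested, which is 0.112% and 0.0651% of them, or 0.177% together (edgeR quasi-likelihood test with the culture as a block, Benjamini-Hochberg adjusted p under 0.05, n = 5 mice). The rises ran from 0.39 to 3.52 on the log2 scale with a median of 0.60, and the falls from -0.40 to -1.94 with a median of -0.62. At least 2-fold changes numbered 4 among the rises and 3 among the falls. The change had the same sign in 5 of 5 mice for 17 of the 19 genes and in 4 of 5 mice for 1. The remaining gene, ENSMUSG00000036875, had the same sign in the 4 mice with counts of it in both cultures. The test that chose the 19 genes used these same mice, so the signs describe them and test nothing. By their mean level over the 30 libraries, 5.20 to 8.95 log2 CPM, all 19 were among the well measured genes, but ENSMUSG00000036875 reached that level only through its stimulated libraries, with and without Tregs. The adjusted p of the 19 genes ran from 0.000219 to 0.0487, and 23 further genes (15 higher, 8 lower) had an adjusted p of 0.0541 or more but under 0.1. An unadjusted p under 0.05 was found for 1173 genes, 10.9% of those tested, where evenly spread p-values would give 537.55. The count depended on the mice in the fit: it was 40 without mouse 1, 5 without mouse 2, 6 without mouse 3, 4 without mouse 4 and 7 without mouse 5. With the libraries scaled by size factors (RLE) in place of TMM, 6 genes were higher and 7 lower. Without the block 3 genes passed (1 higher, 2 lower). With limma on the 5 differences per mouse, which pairs the cultures of a mouse, 1 gene passed. The 19 genes had the same sign in each of these fits, which reuse the libraries that chose them.

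**Figure D1:**
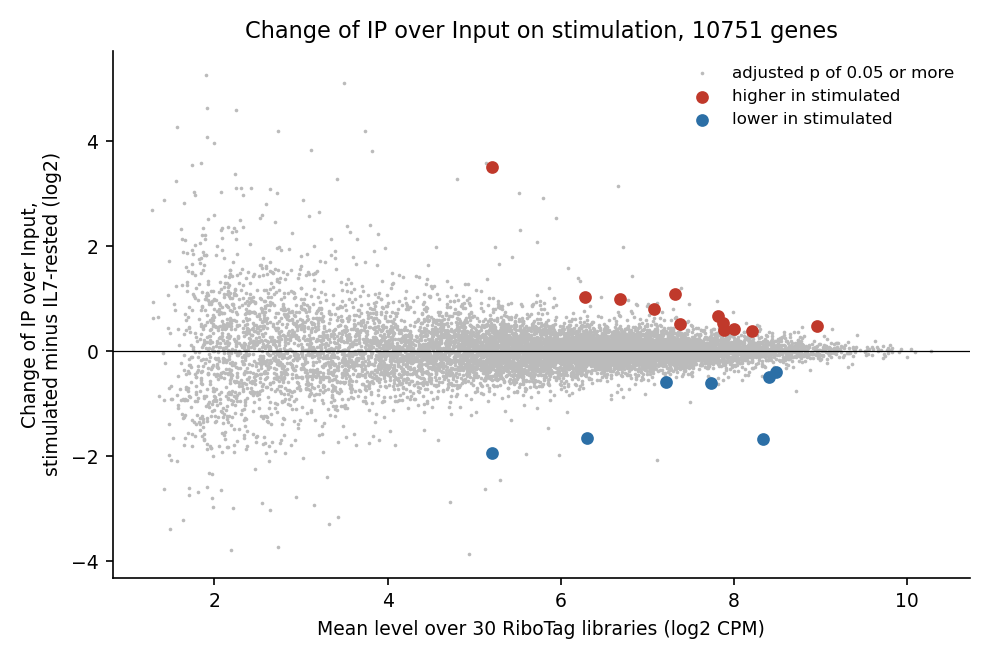
Change of the log2 ratio of IP over Input, stimulated minus IL7-rested, against the mean level in log2 CPM for the 10751 tested genes. The 12 genes past the test and higher in stimulated cultures (red) and the 7 lower (blue) all lie at 5.20 log2 CPM or above, where the scatter of the other genes (grey) is narrower than at low levels.

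Among the genes past the test, the largest rise was that of ENSMUSG00000036875, a gene nearly silent at rest. Stimulated IP libraries of mice 1 to 5 held 88, 159, 161, 176 and 141 counts of it, and stimulated Input libraries 88, 149, 110, 182 and 176. Rested IP libraries held 2, 0, 0, 0 and 0 counts and rested Input libraries 8, 11, 5, 0 and 3. The stimulated and rested libraries did not overlap in either fraction, and rested mouse 4 had no count in either. Pooled over mice and scaled to library size, the IP over Input ratio was 1.01 in stimulated cultures (725 against 705 counts, exact 95% interval 0.908 to 1.12) and 0.0697 in rested cultures (2 against 27 counts, interval 0.0080 to 0.277). These intervals cover counting error only. The fitted log2 change was 3.52 (SE 0.70, adjusted p = 0.0451 by edgeR), a value that rests on those 2 counts and on the prior count of the fit. It passed the test in 3 of 12 alternative fits, with values of 1.53 to 5.51. The 12 leave out DESeq2, for which no adjusted p of this change is at hand. Leaving out mouse 1, which had the 2 counts, gave 5.51 with an adjusted p of 0.0200.

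ENSMUSG00000002068 had the second largest rise among the genes past the test, at levels high enough to be counted in every library. Its stimulated IP level was 265, 290, 235, 269 and 245 CPM in mice 1 to 5, and its stimulated Input level 294, 248, 224, 214 and 205 CPM. In rested cultures IP was 12.1, 6.65, 21.4, 21.5 and 11.8 CPM and Input was 23.2, 14.3, 31.4, 34.4 and 37.5 CPM. IP was above Input in 4 of the stimulated cultures, mouse 1 being the exception, and below Input in all 5 rested cultures. The log2 ratio averaged 0.15 ± 0.19 in stimulated and -0.94 ± 0.42 in rested cultures (SD, n = 5 each), and the 2 sets of ratios did not overlap. The fitted change was 1.08 (SE 0.19, adjusted p = 0.00951 by edgeR). Both levels rose on stimulation, Input by 3.07 and IP by 4.15 on the log2 scale. The call was lost without mouse 2, 4 or 5 (adjusted p 0.127, 0.0954 and 0.149) and held in 7 of 13 alternative fits, whose adjusted p went up to 0.437.

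The largest fall among the genes past the test was that of ENSMUSG00000092274, which was depleted from the IP in every culture. Its stimulated IP level was 1.84, 4.83, 4.55, 2.38 and 4.45 CPM in mice 1 to 5 and its stimulated Input level 40.1, 49.0, 30.5, 43.9 and 48.3 CPM. Rested IP was 34.4, 41.7, 17.1, 18.5 and 28.9 CPM, and rested Input was 75.6, 76.4, 113, 81.1 and 67.3 CPM. Stimulated and rested libraries did not overlap in either fraction, and the IP levels lay further apart. The log2 ratio averaged -3.32 ± 0.56 in stimulated and -1.58 ± 0.76 in rested cultures (SD, n = 5 each). It was lower in the stimulated culture of 4 mice and higher by 0.13 in mouse 3, whose rested ratio of -2.67 lay among the stimulated ones. The fitted change was -1.94 (SE 0.40, adjusted p = 0.0472 by edgeR). Without mouse 3 it was -2.44, and the call was lost without mouse 1, 2, 4 or 5 (adjusted p 0.0733, 0.213, 0.101 and 0.175). The gene passed the test in 3 of 12 alternative fits, with values of -2.44 to -1.40. The 12 leave out DESeq2, for which no adjusted p of this change is at hand.

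ENSMUSG00000064367, the second largest fall among the genes past the test, had the lowest adjusted p of the 10751 genes. Its stimulated IP level was 53.3, 16.2, 47.5, 32.9 and 34.8 CPM in mice 1 to 5, against stimulated Input levels of 762, 622, 558, 498 and 419 CPM. Rested IP was 146, 162, 103, 88.3 and 127 CPM, and rested Input was 660, 711, 564, 501 and 579 CPM. The IP levels of the 2 conditions did not overlap, while the Input levels did. The log2 ratio averaged -4.00 ± 0.68 in stimulated and -2.28 ± 0.17 in rested cultures (SD, n = 5 each). Stimulated mouse 2, at -5.19, was the lowest, and the other 4 stimulated ratios ran from -3.89 to -3.53. The fitted change was -1.67 (SE 0.20, adjusted p = 0.000219 by edgeR), with an Input change of -0.08 (adjusted p = 0.711) and an IP change of -1.76 (adjusted p = 9.54e-09). It passed the test in 13 of 13 alternative fits, where it ran from -1.85 to -1.33, and was -1.42 without mouse 2.

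**Figure D2:**
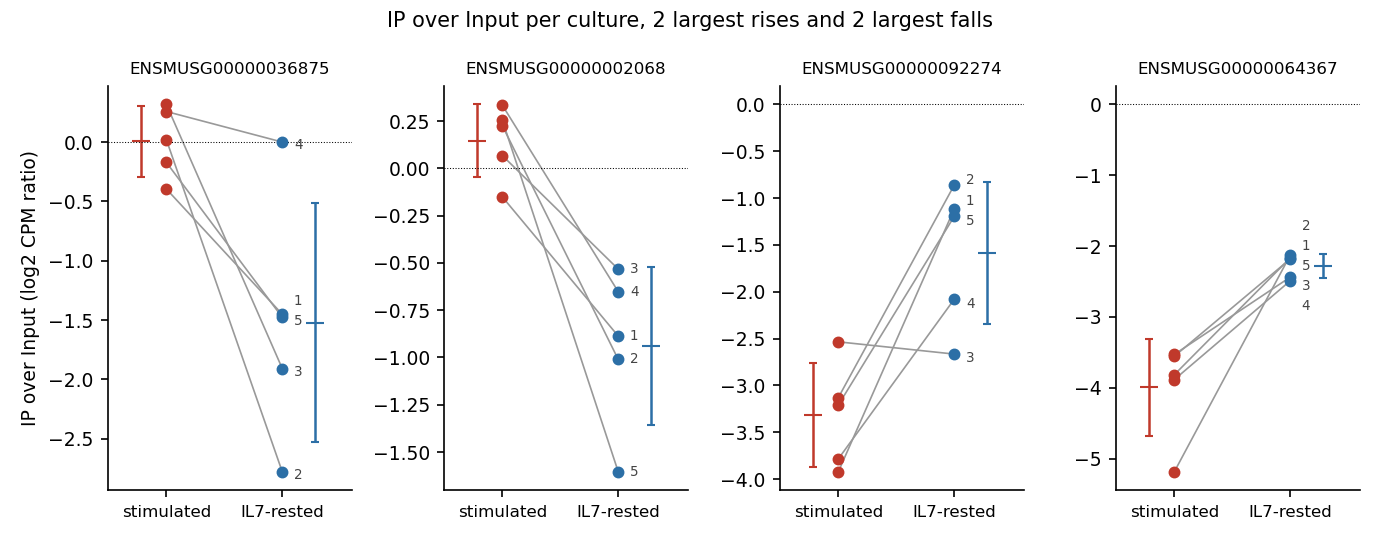
Log2 ratio of IP over Input in each stimulated (red, left) and IL7-rested (blue, right) culture. The panels are the 2 largest rises and the 2 largest falls among the genes past the test. Grey lines join the cultures of a mouse (numbered 1 to 5), bars are the mean ± SD of 5 cultures, the dotted line is equal IP and Input, and each panel has its own axis. The ratios are from log2 CPM with a prior count of 2, so for ENSMUSG00000036875 the rested values are pulled towards 0. For ENSMUSG00000092274 the stimulated and rested ratios overlap through mouse 3. For ENSMUSG00000036875 they overlap through rested mouse 4, whose ratio of 0 comes from no count in either fraction.

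A further 3 of the genes past the test changed at least 2-fold. The third largest fall was 1.66 on the log2 scale (a change of -1.66, SE 0.25, adjusted p = 0.00565 by edgeR), with -4.25 in stimulated and -2.59 in rested cultures. Its change per mouse ran from -2.63 in mouse 2 to -1.26 in mouse 5. The next largest rises, in order, were 1.03 and 1.00, with ratios of 0.22 and 0.14 in stimulated and -0.81 and -0.86 in rested cultures. The change per mouse ran from 0.05 in mouse 4 to 1.53 in mouse 3 for the first of them, and from 0.55 in mouse 2 to 1.23 in mouse 4 for the other.

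The 12 rises had ratios near 0 after stimulation and lower ones at rest. In stimulated cultures their fitted log2 ratio ran from -0.25 to 0.29, above 0 for 11 genes, and in rested cultures from -3.50 to -0.14, below 0 for 12. Of the 12, 2 were higher in IP in stimulated cultures, where 4.33% of tested genes were, and 11 were lower in IP in rested cultures, where 8.85% were. These genes were chosen by the difference of the 2 ratios, so the stimulated and rested counts describe them and test nothing. Over all tested genes the ratio was nearer to 0 in stimulated cultures for 59.1%.

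The 7 falls were of 2 kinds. In 3 of them, which include the identified ones, IP was below Input in both conditions and lower still after stimulation, with ratios of -4.25 to -3.52 in stimulated and -2.59 to -1.57 in rested cultures. In the other 4 the ratio ran from -0.34 to 0.21 in stimulated and from 0.16 to 0.62 in rested cultures, where each of the 4 was higher in IP (9.03% of tested genes were). Their falls were between 0.40 and 0.62 in size. The 7 genes were chosen by the difference of the 2 ratios and split by the sign of the rested ratio. The ratios and the count of 4 therefore describe them and test nothing.

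The ratio in stimulated cultures with Tregs did not enter the contrast that chose the genes. The libraries of these cultures did enter its filter, scaling and estimate of the spread, and without them 9 of the 19 genes passed. The values with Tregs are therefore not independent of the choice. For the 12 rises the ratio with Tregs ran from -0.23 to 0.32. It ran from -3.35 to -2.35 for the 3 depleted falls and from -0.07 to 0.24 for the other 4 falls. The ratio with Tregs was nearer to the stimulated than to the rested value for 16 of the 19 genes, that is 12 of 12 rises and 4 of 7 falls, and for 60.9% of all tested genes. In the 3 depleted falls the value with Tregs lay between the other 2. In cocultures, Input may hold RNA of untagged Tregs, since the sources used here do not say whether they were removed, and the part of this in the ratios was not tested.

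**Figure D3:**
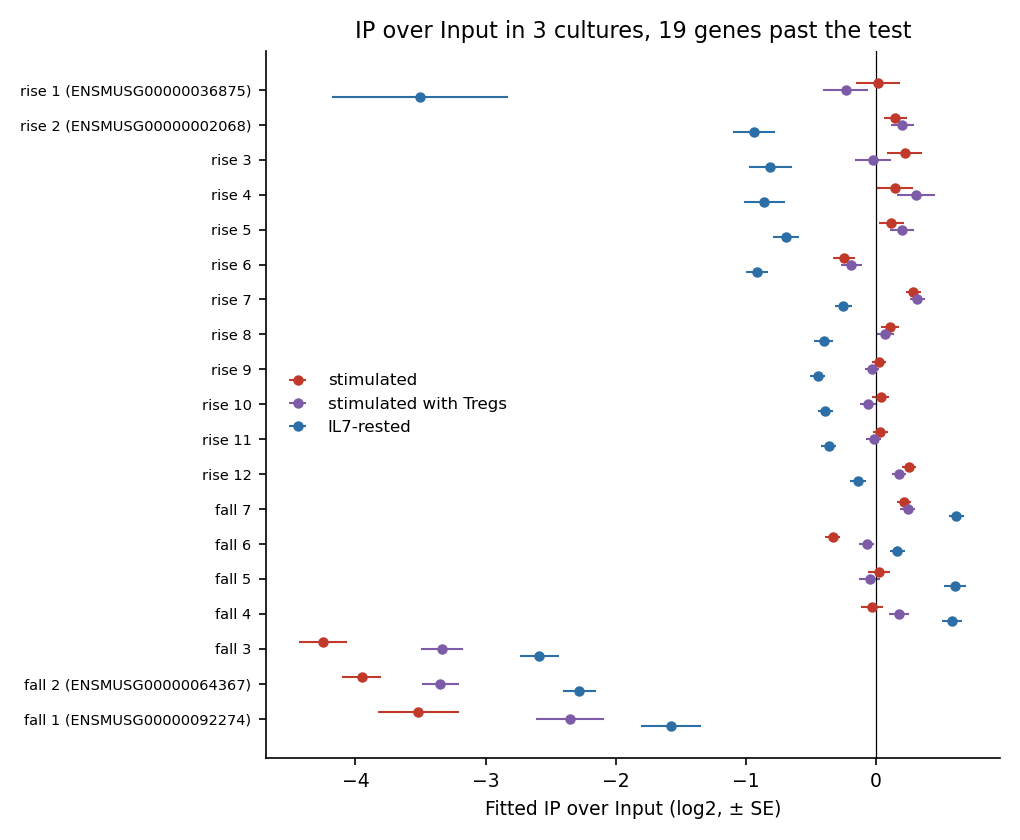
Fitted log2 ratio of IP over Input (point, with its SE) in stimulated cultures (red), stimulated cultures with Tregs (purple) and IL7-rested cultures (blue) for the 19 genes past the test, ordered by their change. The 12 rises have stimulated values of -0.25 to 0.29 and rested values of -3.50 to -0.14, and the 3 depleted falls lie at -1.57 or lower in each culture.

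A change of the ratio can go with a change of either level, and the 19 genes differed in this. Among the 12 rises, the IP level rose for 8 and fell for 1, and the Input level rose for 5 and fell for 4 (over all tested genes, 33.6% rose and 31.1% fell in IP, 64.7% together, and 32% rose and 31.4% fell in Input, 63.3% together). Their median log2 change was 0.94 in IP and 0.22 in Input. In the 4 rises whose Input fell (log2 changes of -0.68 to -0.38), the IP change was -0.27 to 0.12, and 1 of them fell in IP as well. Among the 7 falls, IP fell for 6 and Input fell for 3 and rose for 1. In the 3 falls whose Input did not pass the test (-0.23 to 0.03), the IP level fell in each (-1.90 to -0.58). The ratio and these levels come from the same libraries, so the counts describe the 19 genes.

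The SPEED libraries of the series gave values on these genes in other animals. There, a sucrose fractionation split the RNA of CD4 effector cells from 4 other mice into polysomal (Pol) and subpolysomal (SubPol) parts, in stimulated and in untreated cultures, and no library is shared with RiboTag. The log2 ratio of Pol over SubPol, stimulated minus untreated, was positive for 12 of the 12 RiboTag rises, with a median of 0.40 and a range of 0.13 to 3.12. Over all SPEED genes 46.2% were positive, and the median of the genes tested in both assays was -0.04. It passed the test for 4 of the 12 (edgeR with the culture as a block, adjusted p 2.62e-06, 0.00271, 0.00589 and 0.0470, n = 4 mice), where 3.56% of all SPEED genes passed in that direction and 6.14% in either. The largest of the 12 was ENSMUSG00000036875 at 3.12 (SE 0.94, adjusted p = 0.0470). Its SPEED call was lost when SPEED mouse 1 was left out (2.16, adjusted p = 0.314), when SPEED mouse 2 was (2.34, adjusted p = 0.318), with no block (adjusted p = 0.0674), with the mouse as block (adjusted p = 0.05005) and with no filter on low counts (adjusted p = 0.150), while without SPEED mouse 4 the value was 7.39. ENSMUSG00000002068 had 0.90 and did not pass (adjusted p = 0.149). Of the 7 falls, 4 were negative and 3 positive with a median of -0.04, and 0 passed the edgeR test in either direction, where 2.58% of all SPEED genes passed with a lower ratio. ENSMUSG00000092274 had -1.42 (adjusted p = 0.283) and ENSMUSG00000064367 had 0.05 (adjusted p = 0.923). The rested RiboTag cultures had IL7 and the SPEED cultures are labelled as untreated, so the baselines differ.

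Taken the other way, the genes that moved in SPEED showed a small RiboTag change in 1 direction. Of 415 genes that shifted towards Pol on stimulation, 4 rose and 0 fell in RiboTag, against 12 and 7 of all 10751. These 4 are the same genes as the 4 of 12 rises that passed in SPEED, given above. The median RiboTag change of the 415 genes was 0.09, with 70.8% positive, against a median of 0.01 and 51.8% positive over all tested genes. The median of the 415 genes was 0.053 without mouse 1, 0.059 without mouse 5 and 0.045 with no filter on low counts. The median over all tested genes was -0.022 to -0.012 in the 5 fits without 1 mouse and -0.037 with no filter. The median over the 415 genes was above 0 in each mouse, at 0.09, 0.04, 0.07, 0.12 and 0.11 in mice 1 to 5. So was the median over all tested genes, at 0.009, 0.026, 0.015, 0.001 and 0.004. For the 297 genes that shifted towards SubPol, 0 passed in RiboTag in either direction by edgeR, and the median was -0.02. The mice disagreed on that group, with medians of -0.15, 0.14, -0.0027, -0.09 and -0.08, and in the fits without 1 mouse the median was -0.026 to -0.089. The size of the SPEED list itself depended on the mice, from 146 genes without SPEED mouse 1 to 695 without SPEED mouse 3.

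Groups of genes with a fixed place in SPEED, or with a change of level there, had RiboTag medians close to 0. The 1009 genes at least 2-fold richer in Pol than in SubPol in stimulated cells had a median change of 0.01, and the 982 at least 2-fold poorer had 0.03. For genes at least 2-fold richer and poorer in Pol in untreated cells the medians were -0.03 (881 genes) and 0.02 (568 genes). The 1579 genes whose SPEED Input rose at least 2-fold on stimulation had a median change of 0.07, and the 1393 whose Input fell as much had -0.04. The 0.07 was 0.019 without mouse 1, 0.028 without mouse 2, 0.030 without mouse 3, 0.037 without mouse 5, 0.016 with mice 3 to 5 alone and 0.019 with no filter on low counts. Over these 6 groups the medians ran from -0.086 to 0.051 in the fits without 1 mouse. In 5 of these 6 groups the mice were split 4 to 1, and in the genes richer in Pol in untreated cells 2 mice were above 0 and 3 below.

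**Figure D4:**
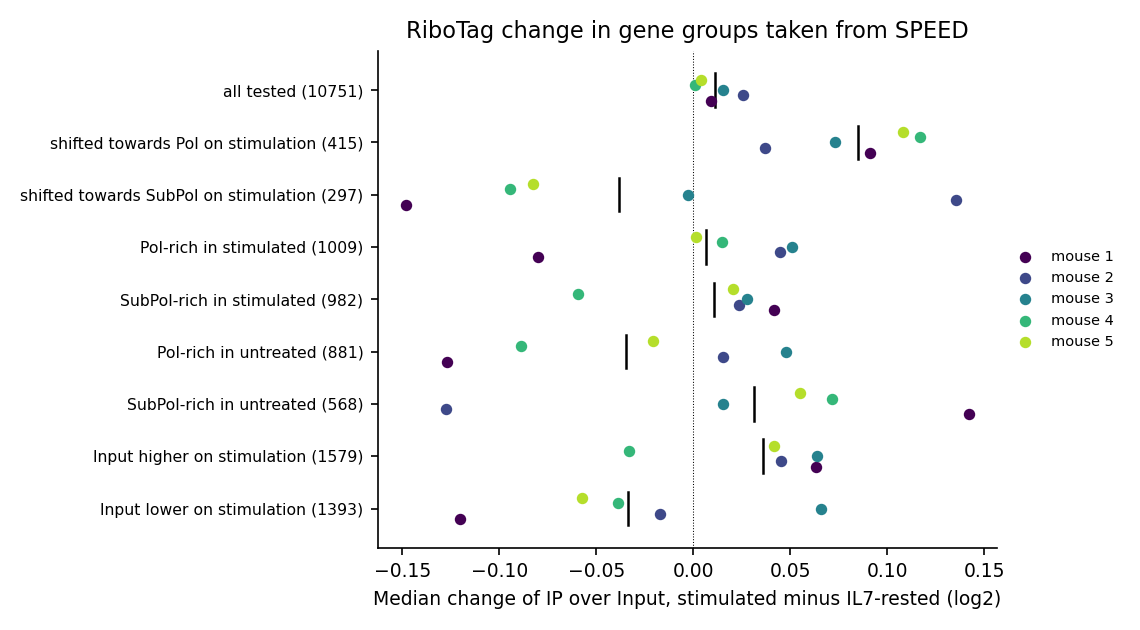
Median RiboTag change of IP over Input (log2, stimulated minus IL7-rested) in each of the 5 mice, as coloured points, for all 10751 tested genes and 8 groups taken from SPEED, with the number of genes in brackets. The black bar is the mean of the 5 mice. In the genes that shifted towards Pol the 5 points run from 0.04 to 0.12, and for all tested genes from 0.001 to 0.026. In most other groups the points fall on both sides of 0.

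On average over the 5 mice, the ratio of IP over Input varied less from gene to gene in stimulated than in rested cultures. The SD of the log2 ratio over the 7206 well measured genes was 0.412, 0.412, 0.311, 0.348 and 0.330 in the stimulated cultures of mice 1 to 5, and 0.358, 0.474, 0.513, 0.477 and 0.495 in their rested cultures. It averaged 0.363 ± 0.047 in stimulated and 0.463 ± 0.061 in rested cultures (SD, n = 5 each), a difference of -0.101 with an exact two-sided permutation p of 0.0238. Paired by mouse, the SD was lower after stimulation in 4 of 5 mice, mouse 1 being the exception, with an exact sign-flip p of 0.125 where 0.0625 is the smallest possible. The permutation p was 0.0286 without mouse 1, 0.0571 without mouse 2 and 0.0857 without mouse 3, 4 or 5. This comparison and the fits without a mouse were chosen after the data were seen. The rested libraries had fewer genes detected than the stimulated ones, as given above. Well measured genes were taken by their mean over 30 libraries, most of them stimulated. Genes with few counts at rest can be among them, and the part of either in the SDs was not tested. The fitted ratios, which average the mice, had an SD over genes of 0.274 in stimulated and 0.345 in rested cultures, and 849 and 1922 genes (7.9% and 17.9%) differed between IP and Input. Leaving out a mouse gave 191 to 507 genes in stimulated and 1068 to 2053 in rested cultures.

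The ratio itself was more alike between mice than its change. Across the 7206 genes, Pearson's r between the ratios of 2 mice averaged 0.458 in stimulated (0.374 to 0.594 over 10 pairs) and 0.336 in rested cultures (0.241 to 0.383). For the change it averaged 0.072 (-0.067 to 0.158). Subtracting the 2 ratios of a mouse takes out what they share and adds the error of both. A lower r for the change could be foreseen from this. The 4 pairs with mouse 1 had r of -0.067 to 0.002 for the change, and the 6 pairs without it 0.103 to 0.158. These are correlations across genes, which are not independent replicates, and the pairs share mice. The fitted ratios in stimulated and rested cultures correlated across genes with r = 0.613, and they share the scaling of the fit.

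**Figure D5:**
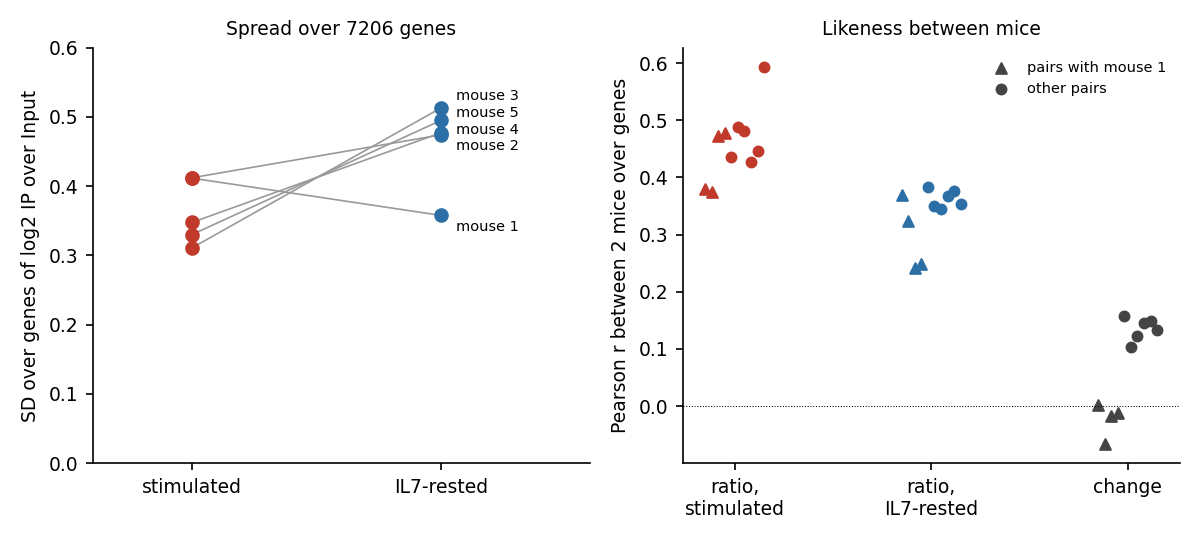
Left, SD over 7206 genes of the log2 ratio of IP over Input in the stimulated (red) and IL7-rested (blue) culture of each mouse, with lines joining a mouse. Right, Pearson's r across genes between the mice of each pair for the ratio in stimulated cultures, in rested cultures and for the change, with triangles for pairs that include mouse 1. The change lies at 0.158 or lower in every pair, and at 0.002 or lower in the 4 pairs with mouse 1.

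How small a change could be seen depended on the level of the gene. The median SE of the change was 0.160 over the well measured genes, 0.090 for the 791 genes at 8 log2 CPM or more and 0.677 for the 2212 genes under 4 log2 CPM. The 95% interval of the change excluded a 2-fold change in both directions for 93.8% of well measured genes and a 1.5-fold change for 64.9%. Under 4 log2 CPM it excluded a 2-fold change for 5.88% of genes, and no gene of that level passed the edgeR test. The SEs and intervals are those of the main fit, which did not pair the cultures of a mouse. Intervals of the alternative fits, which passed other numbers of genes, are not given here.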

How the data were processed

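Gene counts from RiboTag and SPEED libraries of mouse CD4 T cells were analysed. For each assay the authors deposited a table with raw counts, whole reads for each of 53465 Ensembl identifiers. The submitters' processing notes name SAMtools 1.2, FastQC 0.11.3, Picard 1.134 and HTSeq 0.4.1, and the genome build GRCm38. For the aligner, the name is not given in the sources used here. Libraries were made with SMART-Seq v4, per the labels' protocols, a kit that does not mark strand, so overlapping genes on opposite strands cannot be told apart. A further 16 columns among the RiboTag counts match no sample and stayed unused.

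Counts were tested in R 4.3.3 with edgeR 4.0.16: filterByExpr (minimum count 10, minimum total 15), TMM scaling, then a quasi-likelihood fit (robust) over 30 RiboTag libraries with the culture (15 levels) as a fixed block and an IP term per stimulation (biological coefficient of variation 0.121). The change is the difference of the stimulated and rested IP terms. Input and IP levels were compared in a fit of group means (0.188), and SPEED in the same way as RiboTag over 36 libraries (0.182), without HHT cultures. SE is the log2 change over the square root of F. Tests are two-sided with Benjamini-Hochberg adjustment. DESeq2 1.42.0 and limma 3.58.1 served as alternatives. CPM is scaled by TMM, and ratios per culture are of log2 CPM with a prior count of 2. The fits were also run on counts simulated from the fitted models. Such counts follow the assumptions of the fits, so these runs do not test the assumptions.

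IP and Input of a culture come from the same cells, and mouse numbers mark the same animal, per the labels. Deviations from the group mean correlated in 15 of 15 IP and Input pairs of a culture at over 0.1 (mean r 0.400, 0.183 to 0.550). Between cultures of a mouse the mean was 0.169 (-0.094 to 0.567), with 38 of 60 pairs over 0.1. Between mice it was -0.053. Deviations add up to 0 within a group, so this last value depends on the others and is no separate check. The chi-square per degree of freedom was 2.59 or more in all 40 pairs of libraries of a group, so none was counted as a copy.

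Members, lists and tests were chosen with earlier results of these data known. The rule for named genes was every gene past the test if these were 30 or fewer. As identifiers could not be matched to symbols, it was narrowed to the 2 largest rises and the 2 largest falls, the planned gene lists and cell type markers were not applied, and no sequence is shown.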

Additional observations from a re-analysis of the deposited data

Results flagged for a closer look

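The ratio of IP over Input differed between stimulated and rested cultures for 19 genes, by the test of the difference itself, with log2 changes of 3.52 for ENSMUSG00000036875, 1.08 for ENSMUSG00000002068, -1.94 for ENSMUSG00000092274 and -1.67 for ENSMUSG00000064367.

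Of 49 groups of 5 values examined, 8 held a value that stood apart from the other 4, where chance gives about 1 in 20 groups. Mouse 2 was the one apart for ENSMUSG00000064367, with a stimulated log2 ratio of -5.19 (the others had -3.89 to -3.53) and a change of -3.06 (the others had -1.65 to -1.09). The SD over genes in rested cultures was 0.358 in mouse 1 and 0.474 to 0.513 in the other mice. In the genes that shifted towards SubPol in SPEED, the median rested ratio was -0.19 in mouse 2 and -0.07 to -0.03 in the others. In the genes richer in Pol in stimulated SPEED cells, the median stimulated ratio was 0.29 in mouse 2 and 0.11 to 0.15 in the others, and in those poorer in Pol in untreated cells it was -0.48 in mouse 2 and -0.20 to -0.11 in the others. The median change was -0.060 in mouse 4 for the genes poorer in Pol in stimulated SPEED cells (0.02 to 0.04 in the others) and -0.033 in mouse 4 for genes whose SPEED Input rose (0.04 to 0.06 in the others). These groups of genes overlap, so the values are not independent.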

How the results depend on the processing

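The count of genes whose ratio changed, 19, was 3 with no replicate block (1 higher, 2 lower) and 4 with the mouse as replicate block (1 and 3). It was 46 in DESeq2 (29 and 17), 13 with RLE scaling (6 and 7), 100 with no filter on low counts (40 and 60), 9 with only the stimulated and rested libraries, 41 with mice 3 to 5 alone (29 and 12) and 1 with limma on the differences per mouse. Without 1 mouse it was 4 to 40. The 19 genes kept their sign in every one of these fits, which reuse the libraries that chose them. Of the 19, 15 passed in DESeq2 and 10 with mice 3 to 5. For IP over Input in stimulated cultures, 849 genes became 105 with no replicate block (22 and 83), 250 with the mouse as replicate block (92 and 158), 90 with mice 3 to 5 (7 and 83) and 191 to 507 without 1 mouse. In rested cultures 1922 became 741 and 1116 under the same blocks and 1068 to 2053 without 1 mouse. The SPEED count of 716 became 322 with no replicate block, 1116 in DESeq2 and 146 to 695 without 1 mouse. The counts for Input and IP levels stayed within 1.5 times in every alternative run. Small values changed sign: the median change of all tested genes, 0.01, was -0.0056 in DESeq2, -0.0046 with RLE, -0.037 with no filter, -0.024 with mice 3 to 5 and -0.022 to -0.012 without 1 mouse, the stimulated ratio of ENSMUSG00000036875 was -0.0056 with no filter and -0.079 to 0.088 without 1 mouse (below 0 without mouse 3 or 4), and for ENSMUSG00000064367 the Input change was -0.15 to 0.0071 without 1 mouse (above 0 without mouse 5) and the SPEED change -0.023 to 0.16 (below 0 without mouse 4). With genes of at least 3 or 7 log2 CPM, thresholds added after the data were seen, the SD over genes differed by -0.142 (exact permutation p = 0.0238, n = 5) and -0.0649 (exact permutation p = 0.0476, n = 5). The p was 0.1, the smallest possible, with mice 3 to 5 alone. The cause of these differences was not tested.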
